A study of Homo sapiens with 8 samples.

Results

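LIN28 and let-7 pathway genes were followed through 4 time points of neural differentiation of human embryonic stem cells. The 9 genes were picked by symbol (LIN28A, LIN28B, TRIM71, HMGA1, HMGA2, IGF2BP1, IGF2BP2, IGF2BP3 and DIS3L2) from the 35940 gene symbols of the deposited table, and all 9 were found and passed the filter of at least 1 TPM in at least 2 libraries. TPM gives each gene's share of a library's transcripts, corrected for transcript length, so levels of different genes can be set side by side. The cells were ESI017, an established human embryonic stem cell line labelled wild type. They were kept in mTeSR1 medium with a ROCK inhibitor for a day after seeding. They were then taken toward a posterior neural fate, as the labels put it, in N2B27 medium with the compounds that the labels call SB (10 µM) and LDN (100 nM), which every group received. The cells received recombinant WNT3A (300 ng/mL) from 34 h of differentiation on, and RNA enriched for poly(A) was taken at 34 h and at 42, 50 and 72 h, which is 8, 16 and 38 h after WNT3A. Each time point had 2 libraries, 8 in all, called replicate 1 and replicate 2, numbers that the labels also use for the batch. Whether these were separate cultures is not given, so the spread between them may be technical. The effects of time and of WNT3A cannot be told apart, as cells without WNT3A were not analysed here, and the 34 h libraries serve as the reference in 3 of the 5 comparisons. The results hold for 1 cell line.

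LIN28A and LIN28B are RNA-binding proteins that hold back the maturation of let-7 microRNAs in stem cells and early embryos. They bind the loop of the let-7 precursor. Terminal uridylyl transferases add a uridine tail to the 3′ end of the bound precursor, and the exonuclease DIS3L2 degrades the tailed precursor. Mature let-7 in turn represses the mRNAs of LIN28B, TRIM71, HMGA2 and the IGF2BP family, so the pathway acts as a developmental timer, and in neural progenitors LIN28 is known to fall as differentiation goes on. Mature let-7 itself was not measured, since the libraries hold long poly(A) RNA.

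The sequences of the let-7 family are shown because they define what its targets share. RefSeq (GRCh38.p14) lists 12 let-7 loci, miR-98 included, with 9 distinct mature 5p sequences and 1 seed, bases 2 to 8 counted from the 5′ end, given in capitals.
let-7a-5p: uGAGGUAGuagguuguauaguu
let-7b-5p: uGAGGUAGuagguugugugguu
let-7c-5p: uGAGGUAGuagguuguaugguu
let-7d-5p: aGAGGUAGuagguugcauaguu
let-7e-5p: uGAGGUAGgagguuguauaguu
let-7f-5p: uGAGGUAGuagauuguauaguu
let-7g-5p: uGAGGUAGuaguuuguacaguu
let-7i-5p: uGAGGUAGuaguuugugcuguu
miR-98-5p: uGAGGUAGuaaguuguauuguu

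LIN28 zinc knuckles are known to bind a GGAG motif in the precursor loop. The letters GGAG occurred after the mature 5p sequence in 9 of the 12 hairpins, on the strand of the hairpin. GGAG occurred anywhere in 43.4% of all 1562 hairpins that RefSeq lists. One hairpin with the motif, in capitals, and one in which these letters were not found are given to show the difference.
MIRLET7A1 (chr9:94175957-94176036, plus strand): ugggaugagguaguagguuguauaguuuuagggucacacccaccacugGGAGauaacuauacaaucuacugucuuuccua
MIRLET7A3 (chr22:46112749-46112822, plus strand): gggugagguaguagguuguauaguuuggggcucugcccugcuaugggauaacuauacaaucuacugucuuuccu

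A 3′ UTR site that pairs with the seed reads CTACCTC on the mRNA strand. In the GENCODE release 29 transcripts of these genes this match occurred 22 times in 8 of the 9 genes, and 13 of the matches were followed by an A. TRIM71 had 6 matches in a 3′ UTR of 6015 bases, LIN28B 4 in 4549, HMGA2 4 in 3003 and IGF2BP1 4 in 6206. LIN28A, HMGA1, IGF2BP2 and IGF2BP3 had 1 each, and DIS3L2, with 567 bases, had none. Among all 13453 tested genes with a 3′ UTR 9.84% held the match. Among 734 tested genes with a 3′ UTR within 10% of the length of that of HMGA2, 15.3% held a match. Of the 734, 0.136% held 4 or more. For TRIM71 (294 genes) these shares were 32.3% with a match and 0.34% with 6 or more. For LIN28B (496 genes) they were 24.8% and 0.403% with 4 or more, and for IGF2BP1 (280 genes) 31.8% and 1.07%. The share with a match was 17.3% for LIN28A, 12.2% for IGF2BP2, 11.7% for IGF2BP3 and 6.97% for HMGA1. Each share counts the gene itself, so the smallest rest on very few genes and carry no test. The first match in 8 of the genes is given with its flanks (GRCh38, mRNA strand, match in capitals), because the later comparison of target genes turns on it.
LIN28A (chr1:26427349-26427378, plus strand): cacagcctattgaaCTACCTCatttttgcc
LIN28B (chr6:105078813-105078842, plus strand): cccggttgcaaagtCTACCTCatgcaagta
TRIM71 (chr3:32891969-32891998, plus strand): acattgcttaagtcCTACCTCatctttatt
HMGA1 (chr6:34245830-34245859, plus strand): cctctgttcacaaaCTACCTCtggacagtt
HMGA2 (chr12:65963299-65963328, plus strand): ccaacgttcgatttCTACCTCagcagcagt
IGF2BP1 (chr17:49051062-49051091, plus strand): gtgtgcgaagtaaaCTACCTCaaggtatga
IGF2BP2 (chr3:185644212-185644241, minus strand): acacacagaagaagCTACCTCaggtgtttt
IGF2BP3 (chr7:23311787-23311816, minus strand): gcatttttactcaaCTACCTCaggtattca

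The depth of the libraries is unknown from TPM. Genes at 1 TPM or more numbered 13860 to 14004 per library, and the mitochondrial share was 8.70% to 11.2%. The pluripotent state was followed on 11 marker genes, whose summed level went from 3287 and 3257 TPM at 34 h to 957 and 981 TPM at 72 h. POU5F1 was at 1165 and 1152 TPM at 34 h, and NANOG, a defining pluripotency factor, at only 2.46 and 1.59 TPM. The 9 neural progenitor markers summed to 570 and 605 TPM at 34 h, against 1182 and 1201 TPM at 72 h. Markers of other fates did not move as one. The 9 mesoderm and endoderm markers summed to 13.9 and 15.7 TPM at 34 h, to 22.85 and 19.45 TPM at 42 h, then to 3.75 and 4.42 TPM at 72 h. Within that sum TBXT, a mesoderm transcription factor, had a mean of 0.994 TPM at 34 h and was raised at 42 h, when its mean was 9.65 TPM (limma adjusted p 0.00149). Its mean at 72 h was 1.74 TPM. MIXL1, also of mesoderm and endoderm, was raised at 50 h (1.64 against 0.112 TPM, limma adjusted p 0.0232), a call lost without any 1 library of 34 or 50 h (0.0780 to 0.121) or with only these libraries in the fit (0.0646). FOXA2, an endoderm and floor plate factor, had a mean of 12.7 TPM at 34 h and was lowered at 72 h, when its mean was 0.720 TPM (limma adjusted p 1.905e-05). SOX17 was listed at 0 throughout.

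The 7 neuron markers summed to 267 and 213 TPM at 34 h, against 184 and 217 TPM at 72 h, most of it TUBB3, which did not pass. The neuronal genes STMN2 and DCX were raised at 72 h, STMN2 from a mean of 0.288 to 7.56 TPM (limma adjusted p 4.937e-05) and DCX from 2.74 to 5.47 TPM (limma adjusted p 0.0273). The DCX call was lost without replicate 2 at 34 h (0.145), without replicate 1 or replicate 2 at 72 h (0.141 and 0.0719) or without the filter on low values (0.0643). The 4 neural crest markers summed to between 2.90 and 8.68 TPM, within which FOXD3 went from a mean of 4.57 TPM at 34 h to a listed 0 at 72 h (lowered, limma adjusted p 0.000239) and PAX3 from 0.134 to 4.53 TPM (raised, limma adjusted p 0.000572). The part of these changes in cell state in the results below was not tested, and in bulk RNA fewer cells of a type and less RNA per cell cannot be told apart.

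Across the course 8 of the 9 genes were abundant, and the log2 changes against 34 h lay between -0.63 and 0.68. HMGA1 and LIN28A were among the most abundant transcripts, with mean levels at the 99.54th and 99.05th percentile of the 14908 tested genes. LIN28B, TRIM71, HMGA2 and the 3 IGF2BP genes lay between the 81.51st and 93.41st percentile, and DIS3L2 at the 48.85th. At 34 h the order of mean levels was HMGA1, LIN28A, IGF2BP1, TRIM71, IGF2BP3, HMGA2, IGF2BP2, LIN28B and DIS3L2, and the values of the neighbours IGF2BP1 and TRIM71 overlapped. At 72 h HMGA2 stood between IGF2BP1 and TRIM71 and overlapped both, and IGF2BP3 stood below IGF2BP2 without overlap.

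**Figure D1:**
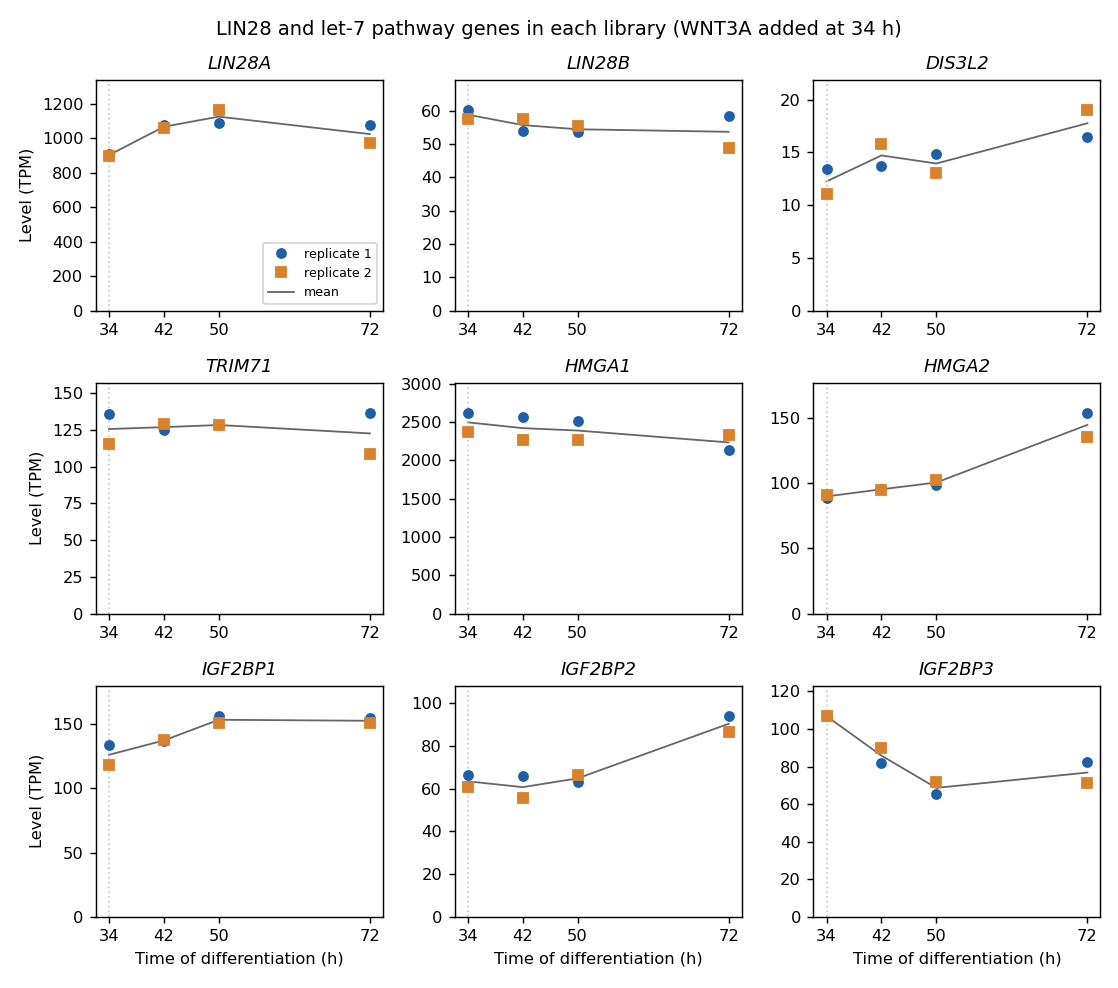
TPM of each of the 9 genes (vertical axis, from 0, scaled per gene) against hours of differentiation (horizontal axis); circles are replicate 1, squares replicate 2 and the line joins the means, with WNT3A added at 34 h (dotted line). HMGA2 and IGF2BP2 are highest at 72 h, IGF2BP3 is highest at 34 h, and LIN28B and TRIM71 stay within 48.8 to 60.3 and 109 to 136 TPM.

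By a moderated F-test of limma over the 4 time points, HMGA2, IGF2BP2 and IGF2BP3 changed (adjusted p 0.00520, 0.0279 and 0.0187), 3 of the 9 genes, where 17.4% of all tested genes passed. LIN28A (adjusted p 0.0718), IGF2BP1 (0.122), DIS3L2 (0.187), HMGA1 (0.578), LIN28B (0.774) and TRIM71 (0.961) did not pass. Without the mean trend of the variance, or without either 34 h library, HMGA2 was the 1 gene that passed, and without replicate 1 at 72 h it was IGF2BP3. The exact permutation test of the F statistic, over all 105 ways to split 8 libraries into 4 pairs, gave an unadjusted p of 0.00952 for HMGA2, the smallest it can give. It gave 0.0286 for IGF2BP1, 0.0381 for IGF2BP3, 0.0476 for LIN28A and 0.0952 for IGF2BP2.

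At 42 h against 34 h, 0 of the 9 genes passed limma's adjusted p of 0.05, against 2.58% of all tested genes (1.78% raised, 0.792% lowered), and LIN28A and IGF2BP3 (2 of 9) were at an unadjusted p under 0.05, as were 13.9% of all tested genes. Without overlap of the libraries, 4 genes were higher and 1 lower, where 22.2% and 20.2% of all tested genes were. At 50 h against 34 h 2 of 9 passed, LIN28A raised and IGF2BP3 lowered, against 6.26% of all tested genes (3.52% raised, 2.74% lowered). Here 3 genes were higher and 2 lower without overlap, against 28.3% and 20.1% of all tested genes. The comparison of 72 h with 34 h had 3 of 9 that passed, HMGA2 and IGF2BP2 raised and IGF2BP3 lowered, against 24.0% of all tested genes (12.7% raised, 11.3% lowered). Without overlap 5 genes were higher and 2 lower, against 36.7% and 27.9%.

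Between 42 h and 50 h 0 of 9 passed by limma (0.0939% of all tested genes, 0.0604% raised and 0.0335% lowered), with IGF2BP3 alone at an unadjusted p under 0.05, as were 9.35% of all tested genes. Without overlap 3 genes were higher and 1 lower at 50 h, against 21.5% and 15.8% of all tested genes. Between 50 h and 72 h 2 of 9 passed, HMGA2 and IGF2BP2, both raised (7.33% of all tested genes, 2.92% raised and 4.41% lowered). Without overlap 3 genes were higher and 1 lower at 72 h, against 25.8% and 25.9%. In the other comparisons the genes at an unadjusted p under 0.05 were 3 of 9 at 50 h against 34 h (20.6% of all tested genes), 6 of 9 at 72 h against 34 h (36.9%) and 2 of 9 at 72 h against 50 h (22.4%). The median log2 change of the 9 genes at 72 h against 34 h was 0.18, where that of all tested genes was 0.06.

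LIN28A, the LIN28 paralog typical of pluripotent cells, had 908 and 897 TPM at 34 h, 1075 and 1059 at 42 h, 1086 and 1165 at 50 h, then 1078 and 970 at 72 h. Every later library lay above both 34 h libraries. Its rise at 50 h was 24.7% of the mean, a log2 change of 0.32 ± 0.08 (SE) on the log2(TPM + 1) scale (limma adjusted p 0.0467). It was 0.26 in replicate 1 and 0.38 in replicate 2. This call lies at the threshold. It was lost in 15 of 18 alternatives, among them the fit with the replicate block (adjusted p 0.0531), TMM scaling (0.0856) and leaving out any 1 of the 8 libraries (0.0598 to 0.211). At 72 h the log2 change against 34 h was 0.18, with a 95% interval of 0.007 to 0.353 (adjusted p 0.122). It was 0.105 without replicate 1 at 72 h, 0.107 with TMM scaling and 0.272 after quantile normalization, where it passed (0.0193).

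LIN28B, the paralog that persists longer in many fetal tissues, had 60.3 and 57.4 TPM at 34 h, 54.1 and 57.4 at 42 h, 53.6 and 55.3 at 50 h, then 58.6 and 48.8 at 72 h. The 34 h and 72 h libraries overlapped. The log2 change at 72 h against 34 h was -0.14 with a 95% interval of -0.40 to 0.13 (limma adjusted p 0.426). This value rests on single libraries, being -0.26 without replicate 1 and -0.01 without replicate 2 at 72 h, and it was -0.21 with TMM scaling. It did not pass in any of the 18 alternatives. LIN28A made up 93.8% and 94.0% of the summed LIN28 transcripts at 34 h, against between 94.8% and 95.5% in all later libraries. The ratio of LIN28A to LIN28B was 15.1 and 15.6 at 34 h and lay between 18.4 and 21.1 in the 6 later libraries, without overlap.

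Among 10849 other tested genes with a mean of at least 5 TPM, those with a course most like that of LIN28A over the 8 libraries were CDCA7 (Pearson r 0.986), CCNJ (0.973) and B3GNT2 (0.968). Those most like LIN28B were GLRX2 (0.939), RAB3GAP2 (0.936) and C1orf21 (0.931). These correlations describe 8 libraries that share time points and carry no test. CDCA7 moved within a range of 0.40 on the log2 scale.

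DIS3L2, the exonuclease that degrades uridylated precursors, had 13.5 and 11.0 TPM at 34 h, 13.7 and 15.7 at 42 h, 14.9 and 13.0 at 50 h, then 16.5 and 19.02 at 72 h. The 72 h libraries were higher than all others. The log2 change at 72 h against 34 h of 0.50 ± 0.16 did not pass (limma adjusted p 0.0509), and it passed with the filter at a mean of 5 TPM (0.0448). Of the 3 other genes of this branch, TUT4, a terminal uridylyl transferase, was called at 72 h against 34 h, where it rose by 0.68 ± 0.14 (limma adjusted p 0.00889) from 35.1 and 31.5 TPM to 56.4 and 51.4 TPM. Its call was lost without replicate 2 at 34 h (0.0620) or replicate 1 at 72 h (0.0653). TUT7, its paralog, had between 4.21 and 6.37 TPM in the 8 libraries, and TRIM25, an E3 ligase that acts with LIN28A on TUT4, between 10.3 and 16.3 TPM. Neither passed in any of the 5 comparisons. Thus 1 of 3 genes was raised at 72 h, where 12.7% of all tested genes were, and nothing is read from that count.

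TRIM71, the LIN-41 homolog, is an RNA-binding ubiquitin ligase repressed by let-7. It had 136 and 115 TPM at 34 h, 125 and 129 at 42 h, 128 and 129 at 50 h, then 136 and 109 at 72 h. The 34 h and 72 h values covered each other. The log2 change at 72 h was -0.04, with a 95% interval of -0.33 to 0.25 (limma adjusted p 0.859).

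HMGA1 and HMGA2 are chromatin proteins that bind AT-rich DNA, and HMGA2 is a well known let-7 target of neural stem cells. HMGA2 had 88.8 and 90.6 TPM at 34 h, 95.8 and 94.6 at 42 h, 98.7 and 102 at 50 h, then 154 and 135 at 72 h. The libraries of successive time points did not overlap, with the largest step after 50 h. It rose by 0.68 ± 0.09 on the log2 scale between 34 h and 72 h, 1.61 times in mean TPM (limma adjusted p 0.00149). The rise was 0.78 in replicate 1 and 0.57 in replicate 2. That call held in all 18 alternatives, with adjusted p-values from 0.00106 to 0.0167. After 50 h the rise was 0.52 ± 0.09 (limma adjusted p 0.0140), and that call was lost without replicate 1 at 50 h (0.0573), replicate 2 at 50 h (0.0527) or replicate 1 at 72 h (0.120), and in a fit of the 50 h and 72 h libraries by themselves (0.0779).

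HMGA1 had 2618 and 2373 TPM at 34 h, 2569 and 2271 at 42 h, 2508 and 2269 at 50 h, then 2135 and 2332 at 72 h. Both 72 h values lay below both 34 h values, and the log2 change of -0.16 ± 0.09 did not pass (95% interval -0.37 to 0.05, limma adjusted p 0.250). Rows named as HMGA1 pseudogenes reached at most 3.71 TPM and those of LIN28A pseudogenes 0.642 TPM, far below the genes. How reads shared by a gene and its copies were divided cannot be seen from TPM. The ratio of HMGA1 to HMGA2 was 29.5 and 26.2 at 34 h, between 22.3 and 26.8 at 42 and 50 h, and 13.9 and 17.2 at 72 h.

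**Figure D2:**
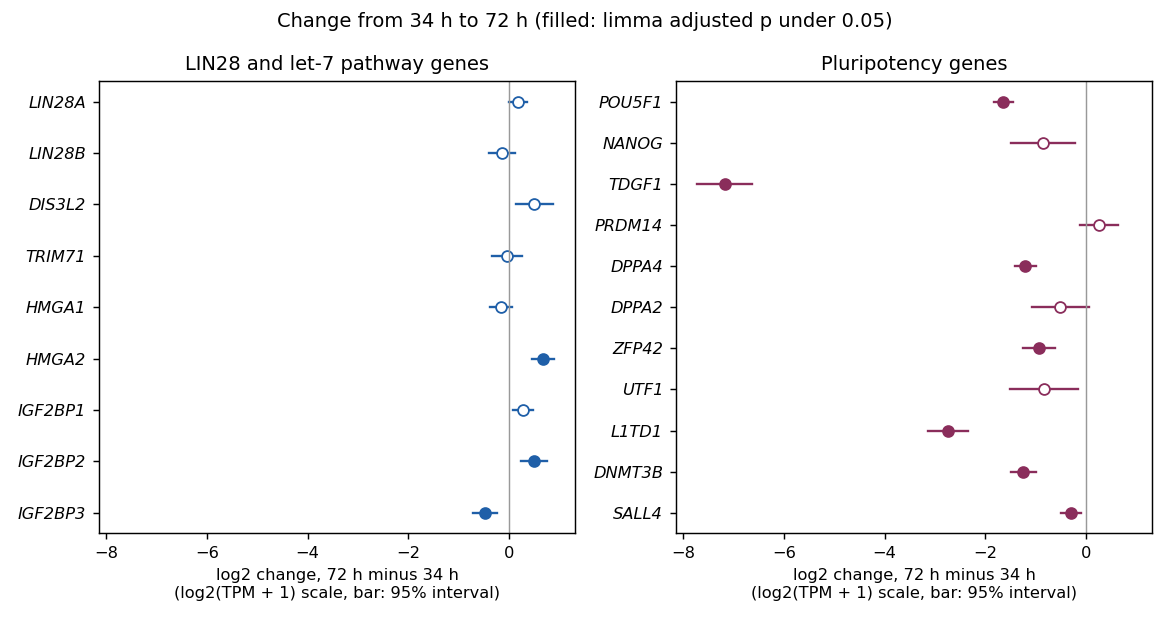
Log2 change at 72 h against 34 h (horizontal axis, log2(TPM + 1) scale) of the 9 genes on the left and of 11 pluripotency genes on the right; bars are 95% intervals of limma and filled points passed an adjusted p of 0.05. The 9 genes lie between -0.47 and 0.68, and the pluripotency genes between -7.17 and 0.26.

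The IGF2BP proteins bind mRNAs such as that of IGF2 and regulate their stability, transport and translation. Between 34 h and 72 h IGF2BP2 rose, IGF2BP3 fell and IGF2BP1 did not pass. IGF2BP1 had 134 and 118 TPM at 34 h, 137 and 138 at 42 h, 156 and 151 at 50 h, then 154 and 151 at 72 h. All later libraries were above both 34 h libraries, and the log2 change at 72 h of 0.28 ± 0.09 did not pass (limma adjusted p 0.0553). It passed after quantile normalization (0.0219).

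IGF2BP2 had 66.2 and 60.7 TPM at 34 h, 65.8 and 55.5 at 42 h, 63.1 and 66.6 at 50 h, then 94.0 and 86.7 at 72 h. The 72 h libraries stood above the 6 earlier ones, which overlapped each other. It rose by 0.50 ± 0.11 between 34 h and 72 h (limma adjusted p 0.0152), 0.50 in replicate 1 and 0.51 in replicate 2. The call was lost without replicate 2 at 34 h (0.0916) or replicate 1 at 72 h (0.0986). The rise from 50 h of 0.47 ± 0.11 (limma adjusted p 0.0446) was lost in 10 of 18 alternatives, among them leaving out any library of 34, 50 or 72 h (0.0655 to 0.237).

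IGF2BP3 had 107 and 107 TPM at 34 h, 81.8 and 89.8 at 42 h, 65.5 and 71.8 at 50 h, then 82.4 and 71.2 at 72 h. The 34 h, 42 h and 50 h libraries did not overlap, each time point lower than the one before, while the 72 h libraries overlapped those of 42 h and of 50 h. It fell by 0.63 on the log2 scale from 34 h to 50 h, to 0.642 times the mean (SE 0.11, limma adjusted p 0.0117). The change was -0.70 in replicate 1 and -0.57 in replicate 2. At 72 h its change against 34 h was -0.47 ± 0.11 (limma adjusted p 0.0154). The 50 h call was lost without replicate 1 or replicate 2 at 34 h (0.0716 and 0.0784) or replicate 1 at 50 h (0.0673). The 72 h call was lost without the same 34 h libraries (0.0685 and 0.0728) or without replicate 2 at 72 h (0.107).

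The summed TPM of the 3 paralogs lay between 283 and 331 in the 8 libraries, while their shares shifted. IGF2BP3 made up 34.8% and 37.35% of the sum at 34 h, 28.8% and 31.7% at 42 h, 23.0% and 24.8% at 50 h, then 24.9% and 23.1% at 72 h. IGF2BP1 went from 43.6% and 41.4% at 34 h to 54.9% and 52.1% at 50 h, then 46.7% and 48.85% at 72 h. IGF2BP2 held between 19.6% and 23.1% until 50 h, against 28.4% and 28.1% at 72 h. The share of IGF2BP3 was lower at 50 and 72 h than in either earlier group, and that of IGF2BP2 was highest at 72 h.

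**Figure D3:**
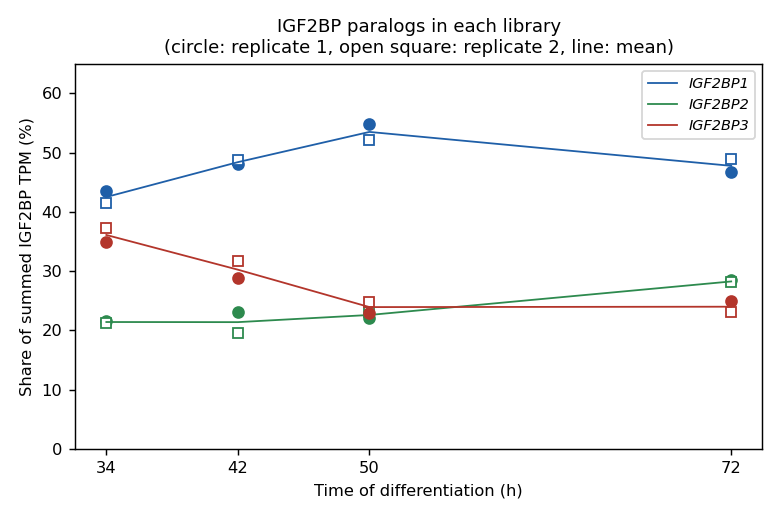
Share of each paralog in the summed TPM of IGF2BP1, IGF2BP2 and IGF2BP3 (vertical axis, percent, from 0) against hours of differentiation; circles are replicate 1, open squares replicate 2 and lines the means. The mean share of IGF2BP3 goes from 36.1% at 34 h to 23.9% at 50 h, and that of IGF2BP2 from 21.4% to 28.3% at 72 h.

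The mRNAs that IGF2BP proteins or TRIM71 are known to bind or repress were taken as a list of 5, of which 4 were tested. IGF2, a growth factor, had 0.725 and 1.01 TPM at 34 h, 1.93 and 2.04 at 42 h, 2.46 and 2.51 at 50 h, then 4.30 and 5.74 at 72 h. It rose by 1.68 ± 0.22 at 72 h against 34 h (limma adjusted p 0.00114), without overlap between time points. Its 50 h call (0.0489) was lost with the replicate block (0.0559) and in 12 other alternatives. CDKN1A, a cell cycle inhibitor known as a TRIM71 target, was raised at 50 h (1.16 ± 0.22, limma adjusted p 0.0200), a call lost without replicate 1 at 34 h (0.121) or replicate 1 at 50 h (0.110), without the filter on low values (0.0617) or with only the 34 h and 50 h libraries in the fit (0.0628). It rose by 0.91 ± 0.22 at 72 h against 34 h (limma adjusted p 0.0211), a call lost without replicate 1 at 34 h (0.114), without replicate 2 at 72 h (0.128) or without the filter on low values (0.0543). CD44, a cell surface receptor, had a mean of 7.385 TPM at 34 h, 12.39 at 42 h, 9.49 at 50 h and 3.06 at 72 h. Its higher level at 42 h did not pass (limma adjusted p 0.0941). It fell by 1.05 on the log2 scale at 72 h against 34 h (SE 0.17, limma adjusted p 0.00311). EGR1 had between 6.30 and 13.0 TPM and did not pass.

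Of the machinery that makes and uses microRNAs, none of 11 genes from DROSHA and DGCR8 (nuclear cleavage) through XPO5 (export) and DICER1 (cytoplasmic cleavage) to the Argonautes AGO1 to AGO4 passed in any of the 5 comparisons by limma. Of all tested genes 2.58%, 6.26% and 24.0% passed at 42, 50 and 72 h against 34 h, 0.0939% between 42 h and 50 h and 7.33% between 50 h and 72 h. Against 34 h, 2 of them were at an unadjusted p under 0.05 at 42 h, 1 at 50 h and 4 at 72 h, where 13.9%, 20.6% and 36.9% of all tested genes were. Between later time points there were 0, against 9.35% and 22.4%. The 4 at 72 h were DGCR8, XPO5, PRKRA and AGO4, of which AGO4 had the largest log2 change, 1.02 with a 95% interval of 0.20 to 1.84 (limma adjusted p 0.0731). In the comparison of 72 h with 34 h AGO4 passed without replicate 1 or replicate 2 at 42 h (0.0336 and 0.0332), and XPO5 passed as lowered with TMM scaling (0.0268). Likewise none of 5 other regulators of let-7 maturation (KHSRP, HNRNPA1, DDX5, DDX17 and MSI1) passed in any comparison, with 1 at 42 h and 2 at 72 h at an unadjusted p under 0.05, and nothing is read from these counts beside the shares of all tested genes just given. Their log2 changes at 72 h lay between 0.18 and 0.24.

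By position, 4 of the 12 let-7 loci lie in a tested protein-coding gene, and the other host transcripts were not analysed here. HUWE1, which holds miR-98 and let-7f-2, had between 114 and 150 TPM. WDR82, which holds let-7g, had between 59.6 and 69.2 TPM, and SPACA6, which holds let-7e, between 1.41 and 6.6 TPM. None of these 3 genes passed in a comparison. The level of a host mRNA is not a measure of the mature microRNA.

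Other genes known as let-7 targets moved in both directions. Of a list of 25 genes 24 were tested. At 72 h against 34 h 8 were raised (33.3%, against 12.7% of all tested genes) and 2 lowered (8.33%, against 11.3%). The other 14 did not pass. The list was chosen with earlier results of these data known, so nothing is read from the difference between these shares. Without replicate 1 at 72 h the calls were 5 raised and 1 lowered, and without replicate 2 at 34 h 5 raised and 2 lowered. TMM scaling gave 7 raised and 4 lowered, and the replicate block, like the fit without mitochondrial genes, gave 8 raised and 3 lowered. Against 34 h there were 3 raised and 0 lowered at 42 h (1.78% and 0.792% of all tested genes), and 4 raised and 0 lowered at 50 h (3.52% and 2.74% of all tested genes). The 72 h call of PLAGL2 was lost with TMM scaling (limma adjusted p 0.0727), quantile normalization (0.0980) or only the compared time points in the fit (0.0714). That of ARID3A was lost without the filter on low values (0.0717) or without the variance trend (0.0582). The calls of PLAGL2, ARID3A and FIGN were also lost without some single libraries. The median log2 change at 72 h was 0.20.

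PRTG, an immunoglobulin superfamily receptor of early neural tissue, had 4.13 and 4.20 TPM at 34 h, 13.9 and 16.1 at 42 h, 40.5 and 36.9 at 50 h, then 127 and 97.7 at 72 h. No 2 time points overlapped, and it rose by 4.44 ± 0.15 between 34 h and 72 h (limma adjusted p 2.417e-06). IGDCC3, of the same superfamily, had 13.9 and 9.60 TPM at 34 h and between 41.7 and 54.1 TPM in all later libraries (2.07 ± 0.17 at 72 h, limma adjusted p 9.335e-05). CCND1, cyclin D1, also a target of WNT signalling, had 88.8 and 65.6 TPM at 34 h and between 246 and 341 TPM in all later libraries (1.96 ± 0.18 at 72 h, limma adjusted p 0.000191). The lowered genes were MYC, a growth-promoting transcription factor, which fell by 0.88 (limma adjusted p 0.00644), and CDK6, a cell cycle kinase, with a log2 change of -0.985 (limma adjusted p 0.0182). The call of CDK6 was lost without replicate 1 at 34 h (0.105) or either 72 h library (0.0670 and 0.0894).

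**Figure D4:**
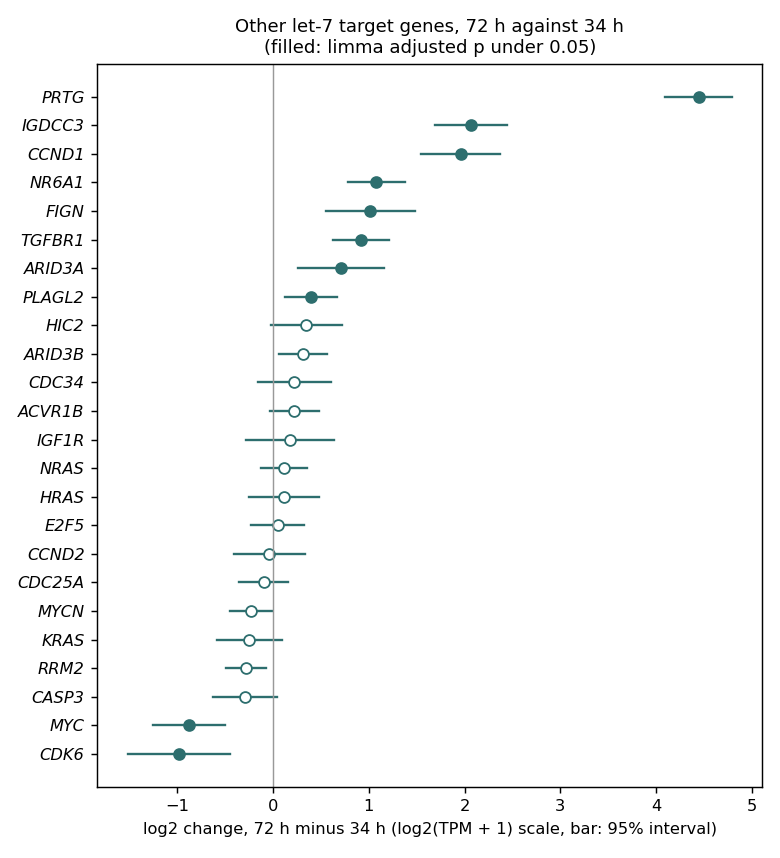
Log2 change at 72 h against 34 h (horizontal axis, log2(TPM + 1) scale) of the 24 tested let-7 target genes outside the 9, ordered by change; bars are 95% intervals of limma and filled points passed an adjusted p of 0.05. The 8 raised genes lead up to PRTG at 4.44, and MYC and CDK6 are the 2 lowered ones.

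Of the 8 raised target genes 7 held at least 1 seed match in the 3′ UTR, CCND1 being the exception, as did 17 of the 23 tested targets with a 3′ UTR. Across all tested genes, those with 3 or more matches, 30 genes among which are LIN28B, TRIM71, HMGA2 and IGF2BP1, had 8 (26.7%) raised at 72 h relative to 34 h, while 2 (6.67%) were lowered. Genes with 2 matches (123) had 16.3% raised and 8.94% lowered, genes with 1 match 14.1% raised and 10.8% lowered, and genes with no match 13.4% raised and 12% lowered. The median log2 changes of the genes with 0, 1, 2 and 3 or more matches were 0.06, 0.07, 0.02 and 0.12. Of the 30 genes 1 was raised and 1 lowered at 42 h relative to 34 h (1.91% and 0.803% of all genes with a 3′ UTR), 2 and 1 at 50 h (3.75% and 2.85%), and 3 and 1 at 72 h relative to 50 h (3.09% and 4.71%). The length of the 3′ UTR moved with the number of matches, from a median of 952 bases without a match to 5692 bases with 3 or more, and its part in these shares was not tested. The 8 raised genes were HMGA2, NR6A1, IGDCC3, FIGN, FIGNL2, MBD2, NYNRIN and SMC1A, and the 2 lowered were PTAFR and RAB15. SMC1A passed narrowly (limma adjusted p 0.0491). HMGA2 is 1 of the 9 genes, and NR6A1, IGDCC3 and FIGN are on the let-7 target list above. HIC2, also of that list, was among the 30 and did not pass. The shares of genes with 3 or more matches therefore repeat part of the earlier counts and are no separate result.

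LIN28A is often used as a marker of pluripotent cells, so the values of other pluripotency genes are given beside it, with no test of the difference. Of 11 tested pluripotency genes 7 were lowered and 0 raised at 72 h against 34 h, where 11.3% and 12.7% of all tested genes were. Their median log2 change was -0.93, and that of all tested genes 0.06. The list did not fall as one. PRDM14 had a mean of 22.05 TPM at 34 h, 7.92 at 42 h and 26.6 at 72 h, a log2 change of 0.26 that did not pass. SALL4 was lowered by only 0.29. TDGF1, a Nodal co-receptor, fell by 7.17 on the log2 scale. L1TD1, an RNA-binding protein known to associate with LIN28 in human embryonic stem cells, went from 172 and 225 TPM at 34 h to 29.3 and 28.1 TPM at 72 h, where it fell by 2.74 (SE 0.17, limma adjusted p 2.717e-05). POU5F1 fell by 1.64 (limma adjusted p 7.657e-06), beside the log2 change of 0.18 of LIN28A, which did not pass (limma adjusted p 0.122) and ranged from 0.105 to 0.272 over the alternatives. Of 8 tested neural progenitor genes 7 were raised at 72 h, where 12.7% of all tested genes were, among them SOX1, a neural transcription factor, by 4.16, CDH2, a cadherin, by 2.20 and PAX6, a neural transcription factor, by 2.06. HMGA2 and IGF2BP2 were likewise highest in the 72 h libraries, and the relation was not tested.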

How the data were processed

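RNA was measured by paired-end poly(A) RNA sequencing in 8 libraries, 2 at each of 4 time points, per the labels' protocols. The authors deposited TPM values for Ensembl genes, and all value columns were used. The submitters' processing notes name Salmon 1.9.0 and GRCh38; the annotation, strand setting and filters are not given in the sources used here. TPM keeps no read numbers, so depth and detection limits are unknown, and with 2 libraries per time point the precision rests on the spread between them, which may be partly technical.

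The 37951 rows were summed to 35940 symbols, and 14908 genes, those that reached 1 TPM in 2 or more libraries, were tested on log2(TPM + 1), a scale that understates changes of low genes. The 8 libraries entered a single limma fit (version 3.58.1, R 4.3.3) that gave every time point its mean (moderated variance with a mean trend, 4 residual degrees of freedom), and p-values of 5 contrasts and an F-test were adjusted over all tested genes by Benjamini-Hochberg, two-sided, called at 0.05. Scripts were tested on simulated data. Intervals are 95% intervals of limma and SE its standard error. The 9 genes and all lists were chosen with earlier results of these data known. Named outside the 9 are up to 3 raised and 3 lowered genes per list with the largest change at 72 h; for LIN28A and LIN28B, the 3 genes with the highest Pearson correlation; any others were named after their values were seen. Host genes were found by position.

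The 3′ UTR of a gene was that of its APPRIS principal protein-coding transcript in GENCODE release 29 (GRCh38), the longest where several tied, and the search ran on the mRNA strand only. Replicate numbers pair libraries because the labels call them batches. Differences between replicates 1 and 2 across genes correlated at 0.0949, 0.195 and 0.142 among 34, 42 and 50 h and at -0.0445, -0.0779 and -0.104 with 72 h. Alternatives were another pseudocount (0.1), other filters, TMM and quantile scaling, no mitochondrial genes, no variance trend, a fit of only the time points compared, the replicate block, Ensembl rows apart and leaving out each library.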

Additional observations from a re-analysis of the deposited data

How the results depend on the processing

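Over 18 alternatives, each of the 45 log2 changes of the 9 genes was refitted, which gave 770 values on the same side of the threshold, 37 that lost a call and 3 that gained one; no called change turned its direction. The count of called genes at 50 h against 34 h fell from 2 to 1 without the filter on low values, with TMM scaling, without mitochondrial genes, without the variance trend, with the replicate block, with Ensembl rows apart and with the compared time points alone, each time by the loss of LIN28A. At 72 h against 34 h quantile normalization gave 5 in place of 3, adding LIN28A and IGF2BP1, and the filter at a mean of 5 TPM gave 4, adding DIS3L2. From 50 h to 72 h the count of 2 became 1 without the filter, without the variance trend and with Ensembl rows apart, and 0 with the compared time points alone. By the F-test 3 became 1 without the variance trend, 2 without the filter on low values (IGF2BP2 lost) and 4 after quantile normalization (LIN28A added), and the exact permutation test gave 4 at an unadjusted p under 0.05 (LIN28A, HMGA2, IGF2BP1 and IGF2BP3). Leaving out 1 library, where the lone library of that time point is assumed to vary like the others, gave 0 to 1 called genes at 50 h against 34 h, 1 to 3 at 72 h against 34 h, 0 to 2 from 50 h to 72 h, 1 to 3 by the F-test and 0 for 42 h against 34 h and 50 h against 42 h. The cause of these differences was not tested.

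The replicate block, which pairs libraries by batch, changed the call of 1 of the 45 comparisons of the 9 genes, LIN28A at 50 h against 34 h (adjusted p 0.0531 by limma, with 1 in place of 2 genes called). Over all tested genes the calls ranged from 160 to 403 at 42 h (main 384), 412 to 966 at 50 h (933) and 1840 to 3661 at 72 h (3578) against 34 h, 0 to 27 from 42 to 50 h (14) and 319 to 1138 from 50 to 72 h (1093), the lowest counts coming without 1 library or with the compared time points alone. By the F-test they ranged from 1158 to 2635 (2587). TMM scaling moved the median log2 change of all tested genes at 72 h from 0.06 to -0.004. Unknown depth limits what can be said of TUT7, SPACA6 and IGF2, which had few TPM.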
